A study of Mus musculus with 6 samples.

Results

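The genes described here encode the machinery that brings newly made secretory and membrane proteins into the endoplasmic reticulum (ER), folds them there and disposes of those that fail to fold. They were listed by name, as 38 genes, and every probe set that the platform annotation gave to exactly 1 of those symbols was taken. That rule found 40 probe sets for 37 genes, of 34760 probe sets and 19937 genes on the array. Sec61g, the γ subunit of the translocation channel, was not analysed here, because its 3 probe sets also carry the symbols of Gm11575 and Gm4184. No filter on low values was used, so all 37 genes entered the test.

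The samples were PreGMs, myeloid progenitors of mouse bone marrow that precede the granulocyte-macrophage progenitor, sorted on Kit from cells without lineage markers, Sca1, CD150, CD41, FcγRII and endoglin. Per the labels they came from female C57BL/6 mice, 3 of genotype Cebpa flox/flox and 3 of genotype Cebpa flox/flox;Mx1Cre, with 1 array each. All mice, the flox/flox ones included, had been injected with pIC 18 days before, an interferon inducer that turns on the Mx1 promoter, which drives Cre recombinase in the mice that carry it. The Mx1 promoter is active in many cell types, Cebpa encodes a transcription factor of granulocyte and monocyte development, and the genotypes differ both in whether the gene could be deleted and in carrying Cre, which cannot be told apart here. Ages were not given in the labels.

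Secretory proteins enter the ER through the Sec61 channel, lose their signal peptide to signal peptidase, and are folded by chaperones such as BiP and by disulfide isomerases. When unfolded protein builds up, the sensors IRE1, PERK and ATF6 start the unfolded protein response. ATF6 and XBP1, the factor made from the transcript that IRE1 splices, then raise transcription of chaperones and of ER-associated degradation (ERAD) genes. Developing granulocytes and monocytes make large amounts of granule and lysosomal proteins that pass through this compartment.

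Array values are on the log2 scale, and array medians ran from 6.43 to 6.55. Cebpa itself read against the labels, at 6.83 ± 0.11 in the arrays labelled flox/flox and 9.0 ± 0.30 in those labelled Mx1Cre (SD, n = 3 each), and where its probes lie relative to the deleted part was not used here. Every direction given keeps to the deposited labels and would turn if they were exchanged. Of the gate's antigens, the gene for Kit had means of 10.46 under the flox/flox label and 10.61 under the Mx1Cre label. Slamf1, which encodes the excluded CD150, averaged 5.46 and 5.29 and read lower in every array labelled Mx1Cre (limma adjusted p = 0.383). Itga2b, which encodes the excluded CD41, also read lower in every array labelled Mx1Cre (7.95 and 7.63 on average, limma adjusted p = 0.108). Eng, the gene for endoglin, averaged 7.37 and 7.31. Fcgr2b, the gene for the excluded FcγRII, was called higher, at 6.74 and 7.16 (limma adjusted p = 0.0410), and Fcgr3, a related receptor gene, was called lower, at 8.14 and 7.09 (limma adjusted p = 0.00970). For scale, gene means had a lower quartile of 5.63 and an upper quartile of 8.07.

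Most of the ER genes read slightly higher in the arrays labelled Mx1Cre, and few of them by enough to pass the test. The difference between group means was positive for 34 of the 37 genes, whereas it was positive for 46.6% of all genes. The median difference was 0.21 log2 units, against -0.01 over all genes, and single genes ran from -0.16 to 0.62. In 19 of the 37 all 3 arrays labelled Mx1Cre read above all 3 labelled flox/flox, which held for 10.5% of all genes, and in 0 of them did they all read below (11% of all genes). At a limma adjusted p under 0.05 (Benjamini-Hochberg over all 19937 genes) 4 genes were called higher, namely Pdia6, Atf6, Sdf2l1 and P4hb, and 0 lower. The background for such calls was 2.63% of genes higher, 2.28% lower and 4.91% in either direction. At an unadjusted p under 0.05, 16 of the 37 were higher and 0 lower, where 8.32% of all genes were higher and 8.12% lower. The 37 genes were brighter than most, with mean levels on the arrays of 9.46 to 9.81 against 6.88 to 6.90 over all genes. The shares over all genes were not matched for level. In bulk RNA of sorted cells, a different share of cells of some type and a different amount of RNA per cell cannot be told apart.

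**Figure D1:**
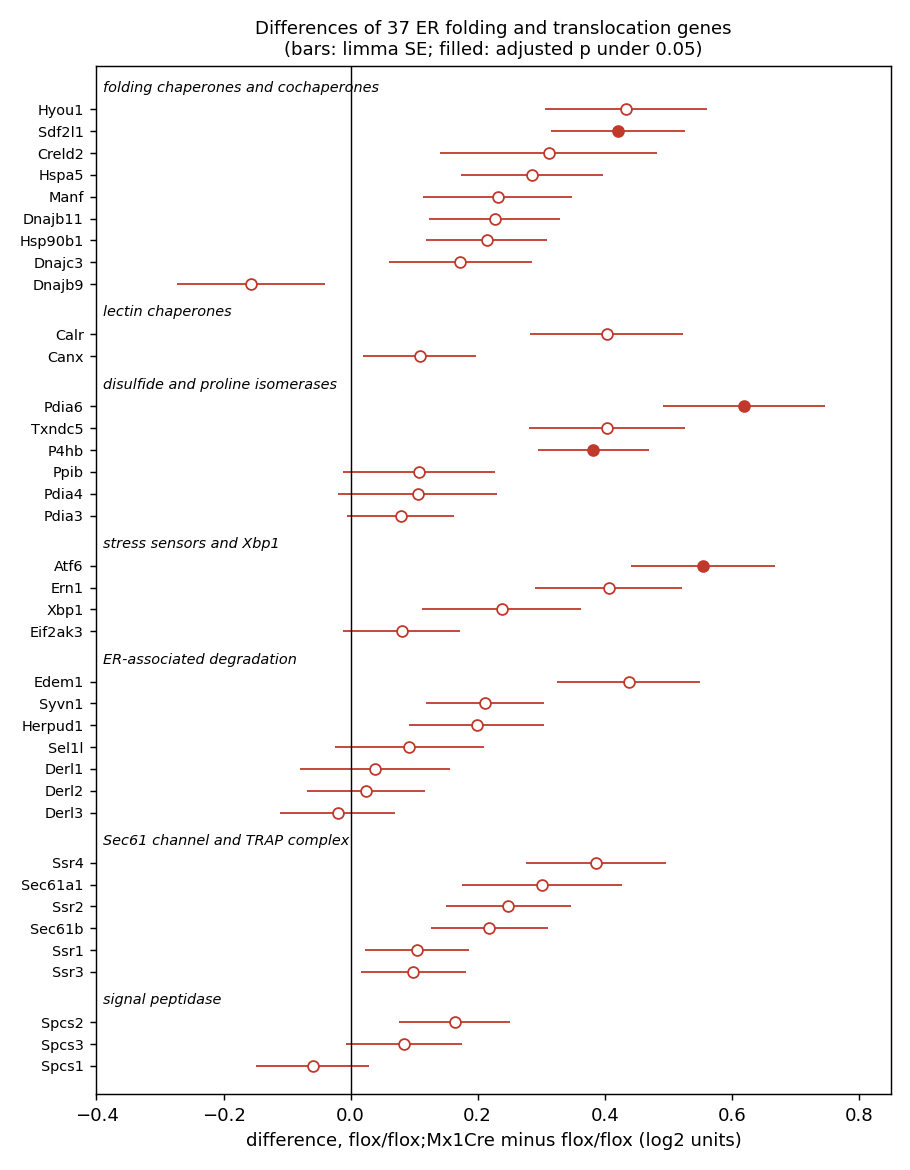
Difference between group means (log2 units, horizontal axis) for each of the 37 genes, arranged by role, with limma's SE as bars and filled points for the 4 genes called at an adjusted p under 0.05. Of the 37 points 34 lie above 0, and the range runs from -0.16 for Dnajb9 to 0.62 for Pdia6.

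The number of calls varied with the arrays used. Leaving out flox/flox replicate 1, 2 or 3 gave 0, 0 and 1 calls, and leaving out Mx1Cre replicate 1, 2 or 3 gave 5, 2 and 0, all of them higher. These 6 fits called 1.34% to 2.28% of all genes higher. Over the same 6 fits between 32 and 34 of the 37 differences were positive, and between 19 and 27 genes had every remaining array labelled Mx1Cre on top. Of all genes, 43.7% to 49.2% had a positive difference in these fits. The share of all genes with those arrays on top was 14.1% to 16.7%, against 10.5% with all 6 arrays. Fewer arrays also lower the power of the test. With each array centred on its median, 12 genes in place of 19 had groups that did not overlap (8.49% of all genes) and 2 were called. That fit called 1.95% of all genes higher. When all 34760 probe sets entered the fit, 0 of these genes were called, and only 0.486% of all probe sets were called higher.

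Several of these genes are classical targets of the unfolded protein response, and a part of their promoters shares a sequence. The ER stress response element (ERSE), bound by ATF6 and XBP1 together with the CCAAT-binding factor NF-Y, was searched as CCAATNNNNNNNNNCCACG on both strands of the 250 bases before each start site in RefSeq promoters of mouse GRCm38.p6, where 31 of the 38 genes had an entry. It was present in 9 of those 31 genes (29.0%) and in 35 of 27025 genes in the table (0.13%). The shorter ERSE-II, searched as ATTGGNCCACG, was found in Herpud1 alone of the 31 and in 10 of all 27025 genes. The UPRE core TGACGTG, bound by XBP1, lay in Hspa5 and Txndc5, or 6.45% of these genes, against 1.85% of all genes. The matches are shown as a feature of a part of these genes. The listing by name did not use sequence, but it took in known targets of this response. The shares are therefore a description and not independent support for the list. Capitals mark the ERSE or ERSE-II match, which reads CGTGG before ATTGG where it lies on the other strand, and each stretch is written 5′ to 3′ on the strand of its gene.
Hspa5 (chr2:34772015-34772053, plus strand): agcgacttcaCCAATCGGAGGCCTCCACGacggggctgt
Pdia6 (chr12:17266481-17266519, plus strand): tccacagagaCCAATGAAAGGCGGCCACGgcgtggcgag
Calr (chr8:84847065-84847103, minus strand): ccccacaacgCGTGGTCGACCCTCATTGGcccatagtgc
Canx (chr11:50325790-50325828, minus strand): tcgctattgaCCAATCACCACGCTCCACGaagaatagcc
Creld2 (chr15:88819510-88819548, plus strand): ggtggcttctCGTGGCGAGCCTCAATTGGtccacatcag
Dnajc3 (chr14:118937817-118937855, plus strand): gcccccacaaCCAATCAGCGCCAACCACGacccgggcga
Syvn1 (chr19:6046522-6046560, plus strand): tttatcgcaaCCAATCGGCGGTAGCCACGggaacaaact
Derl3 (chr10:75893232-75893270, plus strand): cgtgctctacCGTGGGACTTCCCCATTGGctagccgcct
Herpud1 (chr8:94386367-94386397, plus strand): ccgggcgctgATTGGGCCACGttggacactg
Hsp90b1 (chr10:86705523-86705666, minus strand): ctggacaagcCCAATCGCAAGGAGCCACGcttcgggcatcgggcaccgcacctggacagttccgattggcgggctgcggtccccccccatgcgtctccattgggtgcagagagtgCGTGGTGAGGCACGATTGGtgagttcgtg
Hsp90b1 held 2 matches, 1 on each strand, and the other genes shown held 1 each.

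Genes with and without the element had differences that overlapped widely. The 10 genes with an ERSE or ERSE-II had a median difference of 0.21 log2 units, from -0.02 for Derl3 to 0.62 for Pdia6. The 20 with neither had a median of 0.14, from -0.16 for Dnajb9 to 0.44 for Edem1, and the 7 without a promoter entry one of 0.25. No test was made between these sets. Of the 4 called genes Pdia6 held an ERSE, Atf6 had no promoter entry, and P4hb and Sdf2l1 held neither element. Those last promoters are shown because they belong to called genes, as the 150 bases before the start, with capitals on each CCAAT or CCACG read on either strand.
P4hb (chr11:120573254-120573403, minus strand): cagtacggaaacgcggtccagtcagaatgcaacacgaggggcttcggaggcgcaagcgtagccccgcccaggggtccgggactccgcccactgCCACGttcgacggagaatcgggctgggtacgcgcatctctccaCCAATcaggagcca
Sdf2l1 (chr16:17132384-17132533, minus strand): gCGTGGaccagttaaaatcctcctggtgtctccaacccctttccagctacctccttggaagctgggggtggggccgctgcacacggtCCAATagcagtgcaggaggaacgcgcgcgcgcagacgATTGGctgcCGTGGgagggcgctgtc
P4hb held 1 of each and Sdf2l1 held 2 of each, but not at the ERSE spacing. Single CCAAT and CCACG words are common, in 24.5% and 20.0% of all promoters over that length. Outside the list, 26 other genes in the table held an ERSE, of which 11 were measured on the array, with 0 called in either direction by limma and 2 of them, Ero1b and Pan2, with all arrays labelled Mx1Cre above the others. Ero1b, an oxidase that recharges disulfide isomerases, differed by 0.33 ± 0.10 log2 units (SE, limma adjusted p = 0.105).

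**Figure D2:**
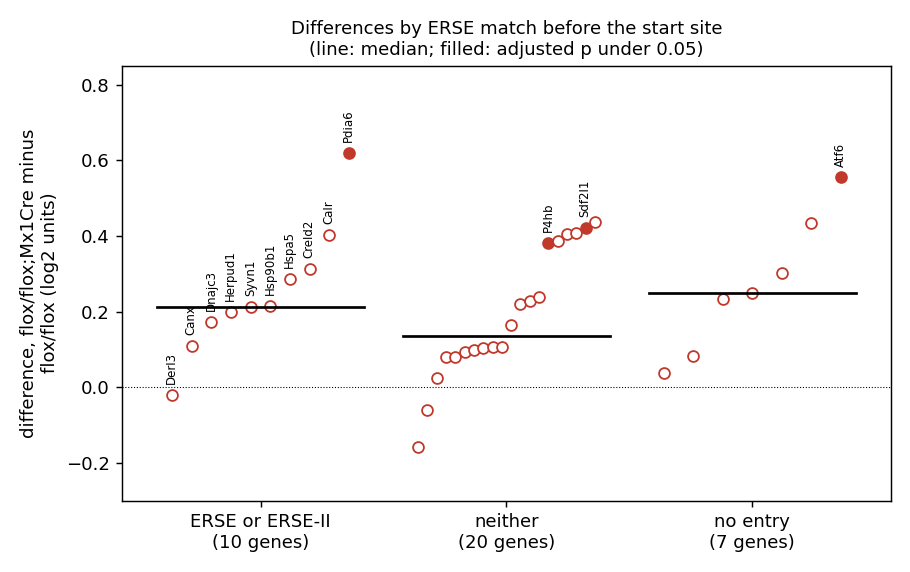
Difference between group means (log2 units, vertical axis) for genes with an ERSE or ERSE-II in the 250 bases before the start, with neither, and with no promoter entry. Lines are medians (0.21, 0.14 and 0.25) and filled points are the 4 called genes, of which only Pdia6 lies among the 10 with the element.

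Disulfide isomerases held 2 of the 4 calls. Pdia6, a disulfide isomerase that works beside BiP, read 9.76, 9.70 and 9.60 in the arrays labelled flox/flox and 10.08, 10.59 and 10.24 in those labelled Mx1Cre. The groups did not overlap, and replicate 2 of the latter stood highest. Its difference came to 0.62 ± 0.13 on the log2 scale (SE), 1.54-fold, with a limma adjusted p of 0.0219 that ran from 0.00787 to 0.142 over the alternatives. It was 0.0543, 0.0578 and 0.0895 without flox/flox replicates 1, 2 and 3, and 0.0590 without Mx1Cre replicate 3.

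P4hb encodes protein disulfide isomerase itself, which is also the β subunit of collagen prolyl 4-hydroxylase. Its arrays labelled flox/flox read 9.71, 9.75 and 9.75, and those labelled Mx1Cre 10.08, 10.23 and 10.06. Spread within either group was small beside the gap between them, at SDs of 0.025 and 0.093. The groups differed by 0.38 ± 0.09 on the log2 scale (SE), 1.30-fold, with a limma adjusted p of 0.0353 in a range of 0.0173 to 0.131. That call was lost when any 1 array was left out, with adjusted p from 0.0570 without Mx1Cre replicate 1 to 0.113 without flox/flox replicate 1.

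The other isomerases were not called. Txndc5, a disulfide isomerase of the thioredoxin family, averaged 7.64 ± 0.04 and 8.05 ± 0.25 (SD, n = 3 each), its groups did not overlap, and its limma adjusted p was 0.105. Without Mx1Cre replicate 1, its lowest array of that label, it would be called, and its adjusted p ran from 0.0324 to 0.314 over the alternatives. Pdia3, the isomerase that works with calnexin and calreticulin, differed by 0.08 ± 0.08, and Ppib, the ER cyclophilin that turns proline bonds, by 0.11 ± 0.12 log2 units (SE). Pdia4, a further disulfide isomerase, differed by 0.11 ± 0.12 on the probe set used and by -0.04 ± 0.14 on its dimmer one.

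**Figure D3:**
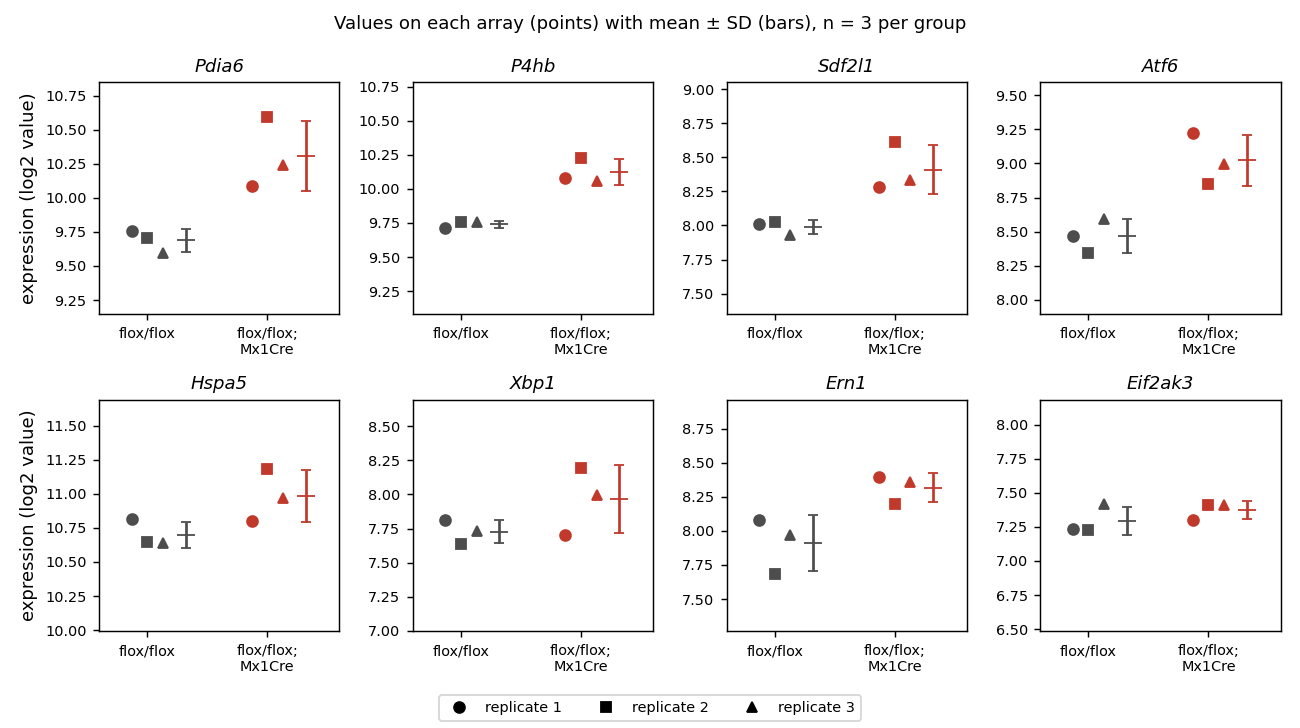
Log2 values on every array for the called genes Pdia6, P4hb, Sdf2l1 and Atf6 (top) and for Hspa5, Xbp1, Ern1 and Eif2ak3 (bottom), with mean ± SD beside the points, every vertical axis spanning the same range. In the top row every array labelled Mx1Cre reads above every array labelled flox/flox, and in the bottom row that holds for Ern1 alone.

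Among the chaperones and their cofactors Sdf2l1 alone was called. Sdf2l1, which belongs to the BiP chaperone complex together with the cochaperone encoded by Dnajb11, read 8.01, 8.03 and 7.93 in the arrays labelled flox/flox against 8.28, 8.61 and 8.34 in those labelled Mx1Cre. The groups were apart, with replicate 2 again highest. Its difference of 0.42 ± 0.10 log2 units (SE), or 1.34-fold, passed narrowly with a limma adjusted p of 0.0494, in a range of 0.0287 to 0.190. Left-out arrays gave 0.124, 0.0998 and 0.162 for flox/flox replicates 1, 2 and 3, and 0.134 and 0.107 for Mx1Cre replicates 2 and 3.

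Hspa5 encodes BiP, the main ER chaperone and the usual gauge of the unfolded protein response. It read 10.81, 10.64 and 10.64 in the arrays labelled flox/flox and 10.80, 11.18 and 10.97 in those labelled Mx1Cre, so the groups overlapped by way of replicate 1 of each. Its difference was 0.29 ± 0.11 log2 units (SE, limma adjusted p = 0.227), which is not past the threshold. Hsp90b1, the ER form of Hsp90, differed by 0.21 ± 0.10 and Dnajb11 by 0.23 ± 0.10, both with groups that did not overlap and neither called (limma adjusted p 0.300 and 0.310).

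Hyou1, an exchange factor for BiP, had the largest difference in this group, 0.43 ± 0.13 log2 units (SE, limma adjusted p = 0.0935, range 0.0312 to 0.295), with groups apart. It was called without Mx1Cre replicate 1. Creld2, a secreted factor induced by ER stress, had the widest spread within a label among the 37 genes, at 8.35 ± 0.10 and 8.66 ± 0.40 (SD, n = 3 each). In the arrays labelled Mx1Cre it read 8.24, 9.04 and 8.70, the first of them below all arrays labelled flox/flox. Manf, a stress-induced ER protein that binds BiP, and Dnajc3, a cochaperone of BiP and inhibitor of PERK, differed by 0.23 ± 0.12 and 0.17 ± 0.11.

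Dnajb9 was the only gene of the 9 chaperones and cofactors with a negative difference. It encodes ERdj4, a cochaperone that is a well known target of XBP1 and a repressor of IRE1. It read 8.30, 8.56 and 8.32 in the arrays labelled flox/flox and 8.02, 8.32 and 8.36 in those labelled Mx1Cre. The groups overlapped, and the difference of -0.16 ± 0.12 log2 units (SE) was not past the threshold (limma adjusted p = 0.604).

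The lectin chaperones, which hold glycoproteins during folding, differed in size. Calr, calreticulin, read 11.79, 11.33 and 11.69 against 11.95, 12.02 and 12.06, with the Mx1Cre-labelled arrays close together and on top. Its difference was 0.40 ± 0.12 log2 units (SE) with a limma adjusted p of 0.0975, in a range of 0.0381 to 0.294. Canx, calnexin, differed by 0.11 ± 0.09 with groups that overlapped.

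Of the stress sensors Atf6 was called. Atf6 encodes the membrane-bound factor that is cut in the Golgi and moves to the nucleus under ER stress. Its arrays labelled flox/flox read 8.47, 8.35 and 8.59, and those labelled Mx1Cre 9.22, 8.85 and 8.99. No values overlapped, and here replicate 1 of the latter stood highest and replicate 2 lowest. Its groups differed by 0.55 ± 0.11 on the log2 scale (SE), 1.47-fold, with a limma adjusted p of 0.0220 in a range of 0.0124 to 0.134. It was 0.0729 and 0.0750 without flox/flox replicates 1 and 2, and 0.0535 and 0.0689 without Mx1Cre replicates 1 and 3.

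Ern1, which encodes IRE1α, was likewise highest in replicate 1 and lowest in replicate 2 of the Mx1Cre label. It read 8.08, 7.68 and 7.97 in the arrays labelled flox/flox and 8.39, 8.20 and 8.36 in those labelled Mx1Cre, without overlap. Its difference of 0.41 ± 0.12 log2 units (SE) had a limma adjusted p of 0.0827, in a range of 0.0374 to 0.266.

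Eif2ak3, which encodes PERK, the kinase that slows translation under stress, read 7.24, 7.23 and 7.41 against 7.30, 7.41 and 7.41. The groups overlapped and the difference was 0.08 ± 0.09 log2 units (SE, limma adjusted p = 0.777). Xbp1 read 7.81, 7.64 and 7.73 against 7.70, 8.19 and 8.0, with replicate 1 of the Mx1Cre label among the flox/flox values. Its difference was 0.24 ± 0.12 (limma adjusted p = 0.401). The positions of its probes were not used here, so spliced and unspliced transcripts were not told apart.

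ERAD genes, which return misfolded proteins to the cytosol for degradation, were called in 0 of 7 cases, where 2.63% of all genes were called higher. Their median difference was 0.09 log2 units, and 6 of the 7 differences were positive. In 2 of the 7 every array labelled Mx1Cre lay above the others, as in 10.5% of all genes. Edem1, a lectin that hands misfolded glycoproteins to this route, came closest. It read 8.02, 8.13 and 7.88 in the arrays labelled flox/flox and 8.29, 8.64 and 8.41 in those labelled Mx1Cre. The groups did not overlap, and the difference was 0.44 ± 0.11 log2 units (SE, limma adjusted p = 0.0566, range 0.0248 to 0.214). It was called without Mx1Cre replicate 1.

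Syvn1, the ubiquitin ligase HRD1, differed by 0.21 ± 0.09 with groups apart, and its partner Sel1l by 0.09 ± 0.12 with groups that overlapped. Herpud1, a stress-induced component of the same complex, differed by 0.20 ± 0.11. The derlins, membrane proteins of the retrotranslocation step, differed by less than their SE. Derl1 differed by 0.04 ± 0.12 and Derl2 by 0.02 ± 0.09. Derl3 read 6.33, 6.33 and 6.35 against 6.42, 6.19 and 6.34, a difference of -0.02 ± 0.09 log2 units (SE, limma adjusted p = 0.960).

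The Sec61 and TRAP genes among the 37 all read a little higher. All 6 measured genes of the Sec61 channel and of the translocon-associated protein (TRAP) complex had every array labelled Mx1Cre above every array labelled flox/flox, where 10.5% of all genes did. Their differences ran from 0.10 to 0.39 log2 units, and 0 were called, where 2.63% of all genes were called higher. Median centring moves every difference by the same small amount, so it could not change their signs. Not all 6 kept their groups apart with it, where 12 of the 37 genes did. With cyclic loess the 6 differences stayed positive. Ssr4, the δ subunit of TRAP, read 10.23, 10.49 and 10.20 against 10.53, 10.77 and 10.78, a difference of 0.39 ± 0.11 (SE, limma adjusted p = 0.0849, range 0.0235 to 0.271). Its fellow subunits Ssr2, Ssr1 and Ssr3 differed by 0.25 ± 0.10, 0.10 ± 0.08 and 0.10 ± 0.08.

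Sec61a1, the pore-forming subunit, differed by 0.30 ± 0.13 log2 units (SE, limma adjusted p = 0.263). It averaged 8.95 ± 0.25 in the arrays labelled flox/flox, where replicate 2 read 8.66, and 9.25 ± 0.09 in those labelled Mx1Cre (SD, n = 3 each). Sec61b, the β subunit, differed by 0.22 ± 0.09 on the probe set used here. Its other 2 probe sets gave 0.17 ± 0.11 and -0.03 ± 0.12, with groups that overlapped, so the sets do not give the same order of groups.

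Signal peptidase subunits differed least. Spcs1 read 11.68, 11.84 and 11.68 against 11.69, 11.71 and 11.62, a difference of -0.06 ± 0.09 log2 units (SE, limma adjusted p = 0.843). Spcs3 differed by 0.08 ± 0.09 and Spcs2 by 0.16 ± 0.09, the latter with groups that did not overlap. None of the 3 was called, where 2.63% of all genes were called higher.

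The arrays labelled Mx1Cre were not alike in these genes. The median deviation of the 37 genes from their own means was 0.20 log2 units in replicate 2, 0.12 in replicate 3 and 0.002 in replicate 1. In the arrays labelled flox/flox it was -0.08, -0.15 and -0.09 for replicates 1, 2 and 3, so every array labelled Mx1Cre lay above every array labelled flox/flox. Replicate 2 was the highest of its label in 28 of the 37 genes and replicate 1 the lowest in 28, and both held in 24 genes, or 64.9%, against 23.7% of all genes. The chaperones and the isomerases carried this order most clearly, with medians of -0.02, 0.29 and 0.10 and of -0.02, 0.30 and 0.09 in replicates 1, 2 and 3. Atf6, Ern1, Canx, Ssr1 and Derl3 were instead highest in replicate 1. Replicates carry no order of their own, and the test treats this spread as error. Array medians over all probe sets ran the other way, at 6.55, 6.43 and 6.49 in replicates 1, 2 and 3 of the Mx1Cre label. Whether that bears on the order in the ER genes was not tested.

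**Figure D4:**
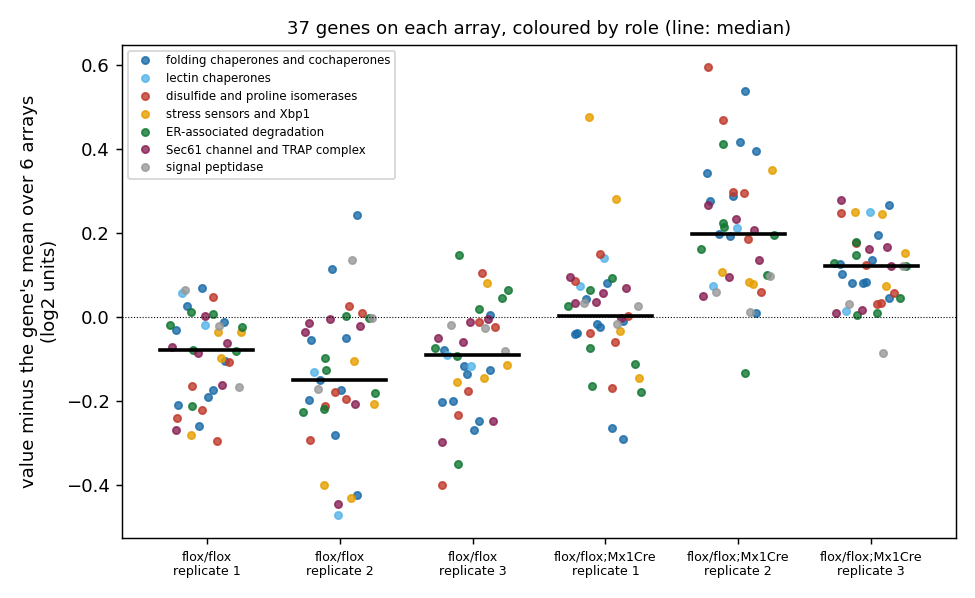
Deviation of each of the 37 genes from its own mean over the 6 arrays (log2 units, vertical axis) on every array, coloured by role, with the median as a black line. The medians of the arrays labelled Mx1Cre are 0.002, 0.20 and 0.12, above those labelled flox/flox at -0.08, -0.15 and -0.09.

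Markers of other cells and states moved with the same labels. Of 12 primary granule and neutrophil progenitor genes 9 were called higher and 0 lower, and their mean log2 level was 7.10 to 7.27 in the arrays labelled flox/flox. In those labelled Mx1Cre it was 8.41, 8.85 and 8.56 for replicates 1, 2 and 3, lowest and highest in the same arrays as the ER genes. Cebpa had that order too, at 8.71, 9.31 and 8.98. The order was not particular to these genes. Mean levels of the T and NK cell, B lymphoid, mast cell and gate lists had it, as did the other pathway genes described below. Those of the monocyte, proliferation, erythroid, megakaryocyte and plasma cell lists did not. Of 12 monocyte and macrophage genes 9 were called higher and 0 lower, with mean levels of 6.35 to 6.56 and of 8.04 to 8.18. Of 20 proliferation genes 4 were called higher and 0 lower, with means of 8.92 to 9.43 and of 9.69 to 9.73. Their part in the ER result was not tested.

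Genes of plasma cells, a cell type with a very extended ER, were dim on these arrays. Of 9 such genes 0 were called by limma, 0 had an unadjusted p under 0.05, and their mean level was 5.71 to 5.80 against 5.63 to 5.78. Jchain, the joining chain of secreted immunoglobulin, had means of 4.31 and 4.01. Of the 9 differences 2 were positive and 7 negative. Groups were apart in 1 gene, Sdc1, which was higher under the Mx1Cre label (5.91 and 6.11, limma adjusted p = 0.335), as in 10.5% of all genes. Of 13 T and NK cell genes 4 were called lower, with means of 7.24 to 7.40 and of 6.08 to 6.45, and of 9 erythroid genes 2 were called lower, with means of 8.60 to 8.90 and of 8.20 to 8.45.

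Other genes of the same pathway, from lists drawn up for this comparison, gave 5 called higher and 0 lower of 95 measured. Of all genes, 2.63% were called higher and 2.28% lower. The median difference of the 95 genes was 0.08 log2 units. Fkbp2, a proline isomerase of the ER, averaged 11.26 ± 0.12 under the flox/flox label and 11.97 ± 0.12 under the Mx1Cre label (SD, n = 3 each). That is 1.64-fold higher under the latter, with a limma adjusted p of 0.00300. Fkbp2 was the only gene of these 5 to be called under all 16 alternatives, where its adjusted p ran from 0.000373 to 0.0424. Pdia5, a disulfide isomerase, was 1.59-fold higher under the Mx1Cre label (limma adjusted p = 0.0298, range 0.00614 to 0.173). The folding and glycan trimming list that holds both had 2 of 23 called and 17 positive differences. Over all 95 genes 62 differences were positive, and the arrays labelled Mx1Cre lay above the others without overlap in 26 and below in 6, against 10.5% and 11% of all genes. In the folding and glycan trimming list that was 12 above and 1 below, and in the further ERAD list 2 above and 3 below, with 9 of 17 differences negative.

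N-glycosylation genes gave 2 calls among 13, where 4.91% of all genes were called in either direction. Ddost and Rpn2 encode subunits of the oligosaccharyltransferase that attaches glycans as proteins enter the ER. They were 1.43-fold and 1.35-fold higher under the Mx1Cre label, with limma adjusted p of 0.0316 (range 0.00818 to 0.159) and 0.0425 (range 0.0185 to 0.171). The count over all 95 genes called higher was 2 without flox/flox replicate 1, 2 or 3, 6 without Mx1Cre replicate 1, and 1 without Mx1Cre replicate 2 or 3. Of 15 targeting and translocation genes, 17 further ERAD genes, 10 ER exit and retrieval genes and 8 further stress transducers 0 were called, with medians of 0.08, -0.06, 0.16 and 0.01 log2 units. In the targeting and translocation list 5 of the 15 differences were negative and 10 positive. Every array labelled Mx1Cre lay above the others in 2 genes and below in 1, against 10.5% and 11% of all genes. Above were Tram1 and Tram2 (0.26 and 0.24 log2 units), and below was Sec62, a partner of the Sec61 channel (-0.20 log2 units). None of them was called.

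The PERK and ATF4 arm gave a single call. Of its 9 measured genes only Asns, asparagine synthetase, was called, 1.43-fold higher (limma adjusted p = 0.0417, range 0.0209 to 0.193), and the median was -0.01 log2 units. Atf4, the factor translated when PERK is active, differed by 0.09 ± 0.09, and Trib3, a target of it, by -0.02 ± 0.12. Ddit3, which encodes the stress factor CHOP, read below in every array labelled Mx1Cre, at 8.78 ± 0.11 and 8.45 ± 0.17 (SD, n = 3 each), but was not called (limma adjusted p = 0.134).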

How the data were processed

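The authors deposited a log2 value for each probe set and array, made with RMA and affy, per the submitters' processing notes. No tool version or chip definition is given in the sources used here. RMA pulls dim probe sets towards a floor, so their differences tend to be understated. Of 34760 probe sets, 21640 had a single gene symbol in the platform annotation, 1321 several and 11799 none here. A gene with several sets was represented by its brightest on average over the 6 arrays, which left 19937 genes. Differences are the Mx1Cre label minus the flox/flox label, fitted in R 4.3.3 using limma 3.58.1 (lmFit, eBayes, neither trend nor weights) and adjusted by Benjamini-Hochberg over all genes, with calls at 0.05. The test was checked on simulated data. Alternatives tried were array weights, an intensity trend with a robust prior, cyclic loess, median centring, other probe set choices, a fit of all probe sets, floors on gene level, single arrays dropped and the replicate block. Replicates are separate mice per the design text. The number of arrays limits precision. Motifs were searched in RefSeq promoters with Python 3.11.15. The named genes are all 37 measured, with every array's value for called genes, for Hspa5 and the stress sensors, and for the 3 largest and 3 smallest differences. A few further genes have theirs for their spread, closeness to the threshold or group order, chosen after their values were seen. Of the other pathway genes the called ones are named, and Atf4, Trib3, Ddit3, Ero1b, Sec62, Tram1, Tram2 and Pan2 were added after their values were seen. Genes and lists were chosen with earlier results of these data known. B lymphoid (0 of 10 called), megakaryocyte (2 of 7 lower) and mast cell markers (2 higher and 3 lower of 10) were also measured, as were 9 gate and progenitor genes (3 higher, 1 lower). The gate genes named were also picked after their values were seen.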

Additional observations from a re-analysis of the deposited data

How the results depend on the processing

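The number of ER genes called higher was 4. It was 6 with the replicate number as a block, 7 with an intensity trend and robust prior, 10 with array weights, 2 with median centring, 0 with all probe sets in the fit, and 0 to 5 when 1 array was left out. For the 95 other pathway genes, 5 called higher became 7 with the replicate block, 9 with the trend, 12 with array weights, 1 with median centring, 1 with all probe sets and 1 to 6 with an array left out. None of these fits called a gene of either list lower. Of all genes, 525 were called higher in the main fit, 388 with median centring and 268 to 455 with an array left out. The counts over all genes with the replicate block, the trend and array weights are not given here. Whether the larger counts with those fits are particular to the ER genes was therefore not tested. Same-numbered arrays correlated in their deviations across genes at 0.188, 0.0515 and 0.174, not all above 0.1, and Mx1Cre replicate 2 correlated best with flox/flox replicate 3 (0.124), so the numbers were not taken to pair the samples. The median difference was 0.15 to 0.25 log2 units without 1 array, lowest without Mx1Cre replicate 2, and 0.21 to 0.23 otherwise. Alternatives added after seeing the data gave the count of positive differences, 32 to 34 without 1 array, and the count with groups apart, which was 12 with median centring, 18 with cyclic loess and 19 to 27 without 1 array. Over all genes, 43.7% to 49.2% of differences were positive without 1 array. Groups were apart with the Mx1Cre label above in 8.49%, 11.2% and 14.1% to 16.7% of all genes, in that order of settings. Small differences changed sign when an array was left out, with ranges of -0.0599 to 0.129 for Derl1, -0.0202 to 0.0858 for Derl2, -0.0713 to 0.0410 for Derl3, -0.0151 to 0.216 for Pdia4 and -0.0130 to 0.187 for Ppib. Leaving out an array also lowers power, and the cause of the other changes was not tested.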
